A study of Arabidopsis thaliana with 33 samples.

Results

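Open chromatin of air-dried Arabidopsis thaliana seedlings was listed by DNase-seq and by FAIRE-seq, and the 2 peak lists were compared with each other. The DNase-seq list held 45737 peaks and the FAIRE-seq list 92034 on chromosomes 1 to 5, together 137771 of the 698102 peaks in the 10 lists of the series. A peak that shared at least 1 base with a peak of the other assay was called shared, and the remaining peaks were called DNase-only or FAIRE-only. This gave 39519 shared and 6218 DNase-only peaks in the DNase-seq list, and 38723 shared and 53311 FAIRE-only peaks in the FAIRE-seq list.

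The seedlings were of the accession Columbia-0, 10 days old, grown on plates with sucrose, and were dried in air for 1 h, a treatment labelled drought. Each assay had 3 libraries of such seedlings, and the labels tie the 3 libraries to 1 pooled peak list per assay. Unstressed seedlings of the same age and accession, and seedlings kept for 6 h at 38 °C (heat), for 24 h at 4 °C (cold) or for 6 h in 250 mM sodium chloride (salt), gave the other 8 lists, which are used only to place the drought peaks. Whole seedlings were used, so a site open in fewer cells and a site less open in each cell cannot be told apart. Since replicates were pooled, no replicate error can be given and no test was made. Intervals given with shares are 95% Wilson intervals and cover counting error only, not the spread between seedlings or libraries. Read totals are not part of the lists. The depth of each assay is therefore unknown here, and an absent peak means that no peak was listed at that depth.

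DNase I cuts DNA that is not wrapped tightly around nucleosomes, and DNase-seq reads the ends it leaves in isolated nuclei. FAIRE-seq reads the DNA that stays in the aqueous phase after formaldehyde has bound protein to DNA, so it recovers stretches with little bound protein. In plants that lose water, abscisic acid binds PYR/PYL receptors, the receptors hold back clade A PP2C phosphatases, SnRK2 kinases are then released, and these act on bZIP transcription factors that switch on dehydration genes. DREB, NAC and MYB factors act on many of the same genes.

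Most DNase-seq peaks of the air-dried seedlings had a FAIRE-seq peak at the same place, and most FAIRE-seq peaks had no DNase-seq peak. The shared peaks made up 86.4% (86.1 to 86.7) of the DNase-seq list and 42.1% (41.8 to 42.4) of the FAIRE-seq list. In bases, 9.78 Mb were listed by both assays, which is 77.3% of the bases under DNase-seq peaks and 37.0% of those under FAIRE-seq peaks. The summit, the position of highest signal in a peak, lay inside a FAIRE-seq peak for 81.4% of DNase-seq peaks, while FAIRE-seq peaks covered 22.2% of the chromosomes. In the other direction, 35.1% of FAIRE-seq summits lay inside a DNase-seq peak, and DNase-seq peaks covered 10.6% of the chromosomes. The match was mostly between single peaks: 37641 DNase-seq peaks met 1 FAIRE-seq peak, 1783 met 2, 91 met 3 and 4 met 4. With the FAIRE-seq list cut to its strongest 45737 peaks, the length of the DNase-seq list, the shares were 60.9% of DNase-seq and 56.8% of FAIRE-seq peaks, so that FAIRE-seq peaks without a DNase-seq peak were no longer the majority. The part that unequal depth may have in these shares was not tested.

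Shared peaks were wider and stronger than the peaks of 1 assay, within each list. The median width was 234 bp (quartiles 162 to 356) for shared DNase-seq peaks and 161 bp (124 to 212) for DNase-only peaks. In the FAIRE-seq list it was 307 bp (199 to 485) for shared and 172 bp (129 to 255) for FAIRE-only peaks. Peaks of at least 1000 bp were nearly all shared, with 438 shared against 4 DNase-only and 1432 shared against 146 FAIRE-only. The median fold enrichment over the local background, as the authors' peak caller gave it, was 4.63 for shared and 3.42 for DNase-only peaks. It was 2.40 for shared and 2.09 for FAIRE-only peaks. The classes overlapped in strength, with quartiles of 3.42 to 6.64 against 2.82 to 4.44 in DNase-seq and 2.04 to 2.85 against 1.86 to 2.38 in FAIRE-seq. A wide peak has more bases with which to meet another peak, so width enters the definition of a shared peak.

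The share of shared peaks rose with peak strength in both lists. When each list was cut into 10 classes of equal size by the authors' −log10 p, 74.5% (73.2 to 75.7) of the weakest 10% of DNase-seq peaks and 98.0% (97.5 to 98.4) of the strongest 10% were shared. For FAIRE-seq peaks the shares were 23.1% (22.2 to 24.0) and 79.6% (78.7 to 80.4). The strongest 10% therefore left 92 DNase-only peaks and 1879 FAIRE-only peaks. Median width rose along the same classes, from 122 to 403 bp in DNase-seq and from 136 to 406 bp in FAIRE-seq.

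**Figure D1:**
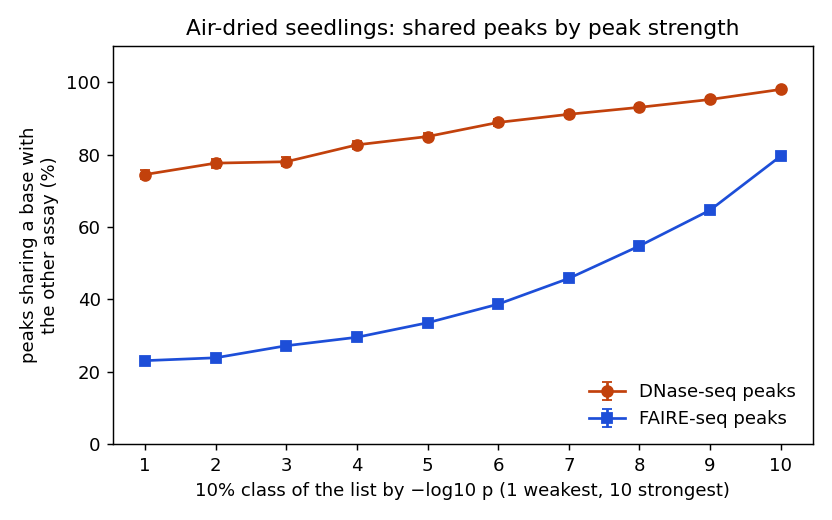
Share of peaks that met a peak of the other assay in air-dried seedlings (y axis, percent) in 10 equal classes of each list ordered by −log10 p (x axis, 1 weakest to 10 strongest), with 95% Wilson intervals. DNase-seq rises from 74.5% to 98.0% and FAIRE-seq from 23.1% to 79.6%.

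Where 1 peak of each list met only the other, the summits were close together and the FAIRE-seq peak was often the wider. There were 32701 such pairs. Their summits lay a median of 43 bp apart (quartiles 17 to 108), within 50 bp in 54.3% of pairs and within 150 bp in 82.8%. The FAIRE-seq peak was the wider in 66.0% of pairs. The DNase-seq peak lay wholly inside the FAIRE-seq peak in 39.1%, and the reverse held in 16.6%. Strength in the 2 assays went together only in part: over the 32701 pairs the Spearman correlation was 0.362 for −log10 p, 0.395 for fold enrichment and 0.454 for width, given as a description of positions that share their seedlings and their sequence. Of the 3807 pairs in the strongest 10% of DNase-seq peaks, 1798 (47.2%) were also in the strongest 10% of FAIRE-seq peaks, and 412 were in the weaker 50% of that list. Peaks of 1 assay share no base with the other list, so the shortest summit distances are absent by definition. The nearest summit of the other assay was a median of 599.5 bp (375 to 997) from a DNase-only summit and 1121 bp (632 to 2049) from a FAIRE-only summit. The distances that the density of the lists alone would give were not computed.

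The strongest pairs at genes were listed in every condition. The 8 genes at the highest pairs, by the lower of their 2 ranks, were AT2G16586, AT1G05370, EMF1, AT5G12043, AT2G32150, HB-2, AT1G62370 and AT1G19490. On the way down to the eighth gene, 2 pairs were passed over because no protein-coding gene lay within 1000 bp or the gene was already named. EMF1 encodes a protein that keeps flowering genes silent, and HB-2 a homeodomain protein of the shade response. At EMF1 the DNase-seq peak at chromosome 5, 3695053 to 3695403 (build TAIR10), had a fold enrichment of 18.4 and the FAIRE-seq peak at 3695070 to 3695387 one of 4.77. The pair lay 559 bp outside the gene. At HB-2 the peaks at chromosome 4, 9450279 to 9450667 and 9450281 to 9450577, had folds of 15.2 and 4.77, inside the gene and 423 bp from its end. All 8 pairs met a peak in all 5 DNase-seq and all 5 FAIRE-seq lists. So did 54.6% of all shared DNase-seq peaks and 55.9% of all shared FAIRE-seq peaks.

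Shared summits were concentrated within protein-coding genes, DNase-only summits less so. Protein-coding genes make up 54.1% of the bases of the chromosomes and the 1000 bp outside them 20.4%. Shared DNase-seq summits lay within genes in 76.5% (76.1 to 76.9) and in the outer 1000 bp in 6.80% (6.55 to 7.05). The shares were 75.2% (74.7 to 75.6) and 7.99% (7.72 to 8.26) for shared FAIRE-seq summits and 72.5% (72.1 to 72.9) and 10.6% (10.3 to 10.8) for FAIRE-only summits. DNase-only summits lay within genes in 57.3% (56.1 to 58.6), near the share of bases that genes take. A further 15.2% of them lay in another annotated locus, such as a pseudogene or a non-coding RNA, and 15.6% in no annotated locus at all, against 8.64% and 16.9% of the bases. With FAIRE-seq cut to the length of the DNase-seq list, DNase-only and FAIRE-only summits lay within genes in nearly equal shares, 66.5% and 67.3%. With a match defined as summits within 150 bp, the shares were 72.3% and 73.3%.

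Among the strongest 10% of peaks it was the FAIRE-only summits that lay least often within genes. Strong DNase-only summits lay within genes in 81 of 92 cases, 88.0% (79.8 to 93.2), close to the 88.4% (87.4 to 89.3) of strong shared DNase-seq summits. Strong FAIRE-only summits lay within genes in 42.6% (40.4 to 44.9), less than the share of bases in genes, and in the outer 1000 bp in 33.4% (31.3 to 35.6). Strong shared FAIRE-seq summits lay within genes in 73.3% (72.2 to 74.3) and in the outer 1000 bp in 13.9% (13.2 to 14.7). The strongest sites that FAIRE-seq alone listed were thus more often outside genes than any other class of strong peak.

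Distance from the gene end separated the classes further. The gene table gives no strand, so the starts and ends of genes are pooled here. Shared summits of both assays were densest 300 to 400 bp inside a gene end, at 2.67 times the share of bases there for DNase-seq and 2.53 times for FAIRE-seq. DNase-only summits were densest nearer to the end, 100 to 200 bp inside, at 2.28 times the share of bases and at 7.55 times among the strongest 10%, where that bin held 34.8% of the 92 summits. The strongest 10% that were shared were also nearer to the end than all shared DNase-seq summits, at 4.59 times the share of bases 200 to 300 bp inside and at 4.15 times 100 to 200 bp inside. FAIRE-only summits had no such maximum near the end. They were densest 1400 to 1500 bp inside genes, at 1.75 times the share of bases, within a broad rise. Every bin from 900 to 2000 bp inside was at 1.60 times or more, and bins further inside were not counted. A smaller rise, to 1.32 times, lay 300 to 400 bp inside. Among the strongest 10% no bin outside the end stood out. The values were 1.97 times in the 100 bp just outside, 1.84 at 900 to 1000 bp, 0.845 at 1500 to 1600 bp and 1.96 at 1700 to 1800 bp. A shift of reads by the authors before peak calling, which would move summits, was not given in the sources used here.

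**Figure D2:**
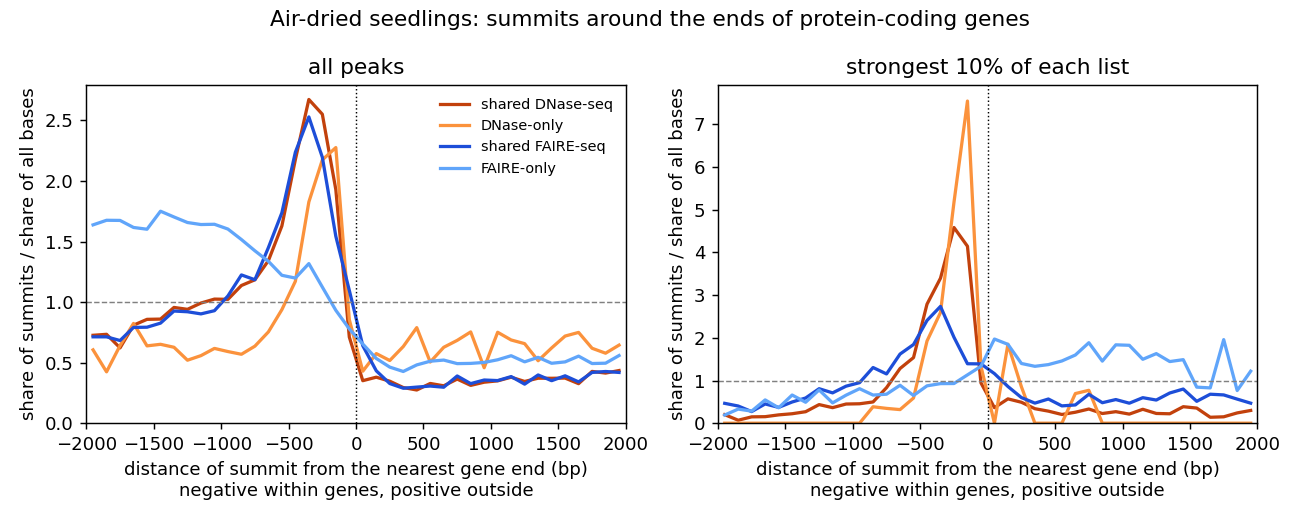
Share of summits per 100 bp bin divided by the share of all bases in that bin (y axis) against the distance from the nearest end of a protein-coding gene in bp (x axis, negative within genes), for all peaks on the left and the strongest 10% of each list on the right. Shared peaks rise to 2.67 and 2.53 inside the end, and strong DNase-only peaks to 7.55 at 100 to 200 bp inside. Strong FAIRE-only peaks reach 1.97 just outside and 1.96 at 1700 to 1800 bp outside.

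The genes at the strongest peaks of 1 assay differed in the same way in place. The 8 strongest DNase-only peaks, with 0 passed over, lay at AT4G11430, AT1G56530, AT4G15025, AT5G23575, AT3G50250, AT1G24050, RLP14 and AT1G58684, and all 8 summits lay within the gene. The strongest of them, at AT4G11430, covered chromosome 4, 6953536 to 6954242, with a fold enrichment of 15.5. RLP14 encodes a receptor-like protein, and its peak at chromosome 1, 27901626 to 27901867, had a fold of 13.6 and lay 272 bp inside the gene. All 8 met a peak in all 5 DNase-seq lists, and in 0 to 2 of the 5 FAIRE-seq lists. The lists of air-dried seedlings are among these, met in DNase-seq and missed in FAIRE-seq by definition. Over all DNase-only peaks, 21.6% met a peak in all 5 DNase-seq lists.

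The 8 genes at the strongest FAIRE-only peaks, by the same rule and with 4 peaks passed over, were AT3G55670, RAB8C, HEC1, ZIP4, AT1G21400, NAC075, AT2G28120 and PYL5. HEC1 is a basic helix-loop-helix factor of carpel development, NAC075 a NAC transcription factor, RAB8C a small GTPase of membrane traffic, ZIP4 an adaptor protein subunit in RefSeq, and PYL5 an abscisic acid receptor. Summits lay 458 bp outside RAB8C, 564 bp outside HEC1, 575 bp outside ZIP4, 504 bp outside PYL5 and 85 bp outside AT2G28120. Those at AT3G55670, AT1G21400 and NAC075 lay within the gene. All 8 met a peak in all 5 FAIRE-seq lists, as did 38.0% of all FAIRE-only peaks. Each of the 8 also met a peak in 3 or 4 of the 5 DNase-seq lists, of which the list of air-dried seedlings is missed by definition. DNase-seq thus listed these places in other conditions but not in air-dried seedlings. Over all FAIRE-only peaks, 60.9% met a DNase-seq peak of some other condition.

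The classes were then looked up in the lists of the other conditions. In the control DNase-seq list, 98.8% (98.7 to 98.9) of shared DNase-seq peaks and 92.1% (91.4 to 92.8) of DNase-only peaks had a match. In the control FAIRE-seq list, the shares were 76.6% (76.2 to 77.0) and 4.57% (4.08 to 5.12). DNase-only peaks thus had a match in the control DNase-seq list far more often than in the FAIRE-seq list of unstressed seedlings. They are by definition absent from the FAIRE-seq list of air-dried seedlings, the longest of the 10 lists. A low share in the other FAIRE-seq lists therefore follows in part from the definition. The control FAIRE-seq list is also shorter, with 72789 peaks against 92034. Over the lists of the 4 other conditions, the share of DNase-only peaks with a match ran from 34.9% (heat) to 92.1% in DNase-seq and from 4.57% to 31.7% (salt) in FAIRE-seq. Of the 6218 DNase-only peaks, 3834 (61.7%) met a peak in no FAIRE-seq list of any condition, and 619 (9.96%) met a peak in all 5 DNase-seq lists and no FAIRE-seq list. Those 619 were wider, at a median of 220 bp, and 85.1% of their summits lay within genes. Only 230 DNase-only peaks were in no other list of either assay, with a median width of 122 bp.

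FAIRE-only peaks were less exclusive to their assay. They had a match in the control FAIRE-seq list in 57.6% (57.2 to 58.1) and in the control DNase-seq list in 41.2% (40.8 to 41.6). In all, 32488 (60.9%) of them met a DNase-seq peak of some other condition, and 20823 (39.1%) met none. Those that met a control DNase-seq peak, 21975 in number, lay within genes in 78.6%. The 4837 in all 5 FAIRE-seq lists and no DNase-seq list lay within genes in 58.0% and in the outer 1000 bp in 17.1%. The drought DNase-seq list is the shortest of the 10 lists, and the control DNase-seq list holds 70807 peaks, so a FAIRE-only peak of air-dried seedlings is one defined against a short list. What list length contributes was not tested.

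**Figure D3:**
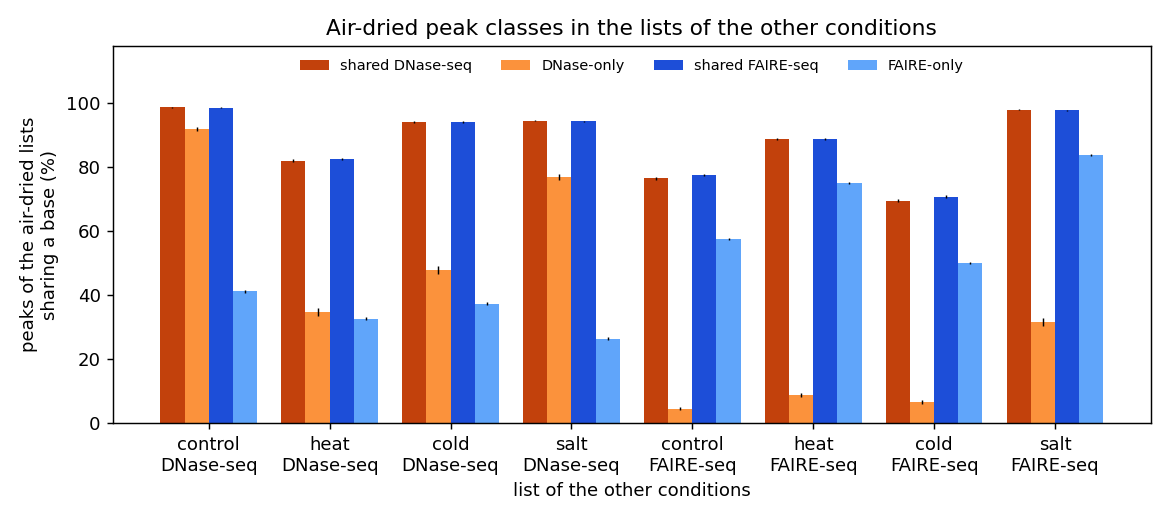
Percent of each class of air-dried peaks that shared a base with the list named on the x axis, with 95% Wilson intervals. DNase-only peaks reach 92.1% in the control DNase-seq list and 4.57% in the control FAIRE-seq list, and FAIRE-only peaks 41.2% and 57.6%.

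Air-dried seedlings had the lowest share of FAIRE-seq peaks met by DNase-seq of the 5 conditions. It was 42.1% here, 56.8% after salt, 58.0% after heat, 63.5% in the control and 69.9% after cold. FAIRE-only summits lay within genes in 72.5% in air-dried and 70.6% in salt-treated seedlings, and in 55.1% in the control, 60.8% after cold and 65.5% after heat. DNase-only summits lay within genes in 57.3% in air-dried and 53.6% in salt-treated seedlings, and in 70.9% to 78.8% in the other conditions. The 2 conditions with these values, drought and salt, also had the 2 longest FAIRE-seq lists, of 92034 and 90465 peaks, and the 2 shortest DNase-seq lists, of 45737 and 55784 peaks. The treatment and the list length cannot be told apart.

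DNase-only peaks were more frequent where genes are sparse. In the 16 windows of 1 Mb with under 20% of their bases in protein-coding genes, 26.2% (25.1 to 27.3) of DNase-seq peaks were DNase-only, against 11.6% (11.3 to 11.9) in the other 105 windows. FAIRE-only shares were 54.5% (53.5 to 55.5) and 58.4% (58.0 to 58.7). The number of FAIRE-seq peaks per DNase-seq peak was 1.61 in the gene-poor windows and 2.08 in the others. Peaks in gene-poor windows were also weaker, with a median DNase-seq fold of 3.32 against 4.63 and a median FAIRE-seq fold of 2.01 against 2.22.

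**Figure D4:**
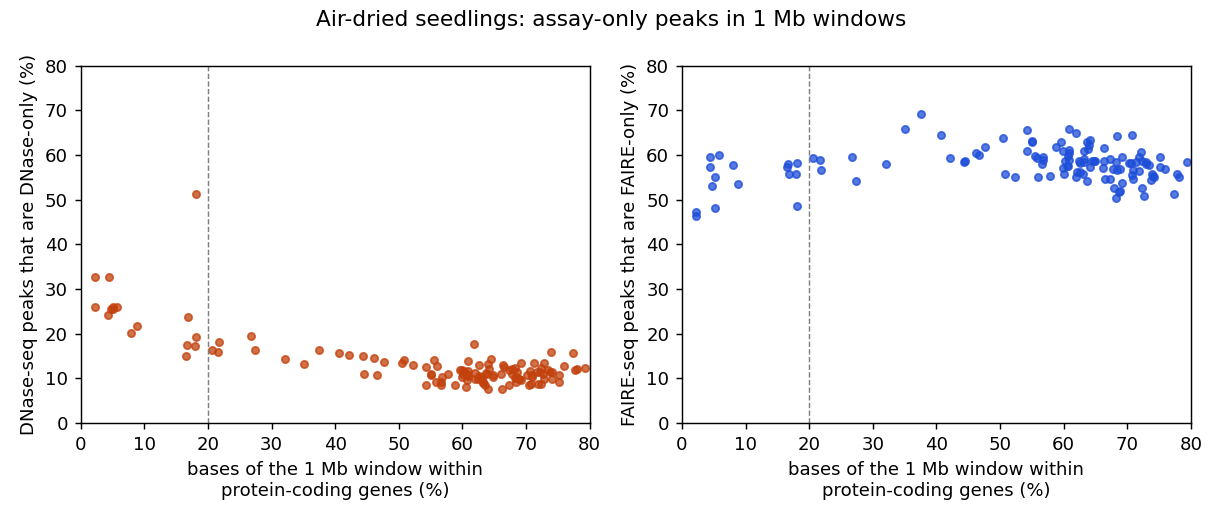
Percent of DNase-seq peaks that are DNase-only (left) and of FAIRE-seq peaks that are FAIRE-only (right) in each 1 Mb window, against the percent of the window's bases within protein-coding genes. DNase-only shares rise to the left of the dashed line at 20%, with 1 window at 51.2%, and FAIRE-only shares do not.

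The window at 51.2% holds a block of chromosome 2, from 3250001 to 3500000, in which DNase-seq listed peaks and FAIRE-seq mostly did not. It held 225 DNase-seq peaks, of which 201 (89.3%) were DNase-only, and 22 FAIRE-seq peaks. The DNase-seq peaks were weak, with a median fold of 1.64, and 207 of the 560 peaks of the list with a fold under 2 lay in the block. As background, the Columbia genome carries a long insertion of mitochondrial DNA near the centromere of this chromosome. The annotation places 22 tRNA loci among the 166 loci of the block. How reads that match both the insertion and the mitochondrial genome were treated was not given in the sources used here, and its part in these peaks was not tested. In the other DNase-seq lists the block held 210 peaks in control, 164 after salt, 125 after cold and 20 after heat, and in the other FAIRE-seq lists 28, 10, 151 and 79 in the same order. Without the block, 13.2% of the DNase-seq list was DNase-only.

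Transfer RNA genes were the only kind of annotated locus tested that met DNase-seq peaks more often than FAIRE-seq peaks. With 100 bp on either side, 293 of 625 tRNA loci (46.9%, 43.0 to 50.8) met a DNase-seq peak and 222 (35.5%, 31.9 to 39.4) a FAIRE-seq peak. Of these, 127 met DNase-seq alone, 56 FAIRE-seq alone and 166 both. Outside the chromosome 2 block the shares were 47.3% and 36.7% of 603 loci. Protein-coding genes met DNase-seq peaks in 74.1% and FAIRE-seq peaks in 91.5%, and microRNA loci in 7.36% and 23.9%. The order for tRNA loci was not the same in other conditions, at 41.8% in both assays in the control and at 18.9% in DNase-seq and 47.4% in FAIRE-seq after salt.

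The abscisic acid and dehydration genes had FAIRE-seq summits at their ends about as often as other genes. The strongest of those summits were high in the list for the phosphatases and the dehydration targets, as they also were for some of the other gene lists. A gene was counted for an assay where a summit lay from 1000 bp outside to 200 bp inside either of its ends, and a summit between 2 genes counts for both. A summit that lies within another protein-coding gene also counts if it falls in this window. Among others, this held for the strongest peaks counted for PYL3, HAB2, SNRK2.3, ABA2, DREB2A, HB7, RAB18, COR15B, GORK and ALMT12. A gene counted for 1 assay only can still have a peak there that meets the other assay, whose summit lies beyond the window, as did AHG1, KIN1 and LTP3. Of 27432 protein-coding genes, 57.2% had such summits in both assays, 3.44% in DNase-seq only, 25.6% in FAIRE-seq only and 13.7% in neither. These shares are the background for the counts of each gene list below. Of the 107 genes on 6 lists (receptors, phosphatases, SnRK2 kinases, hormone metabolism and transport, transcription factors, dehydration targets), 60 had summits in both assays, 3 in DNase-seq only, 29 in FAIRE-seq only and 15 in neither. A DNase-seq summit at an end was listed for 63 of the 107, against 60.6% of all genes, and a FAIRE-seq summit for 89, against 82.8%. In 56 of the 107 a DNase-seq peak at an end shared a base with a FAIRE-seq peak, against 55.2% of all genes. The counts depended on the window: from 500 bp outside to 100 bp inside an end, 34 had both, 3 DNase-seq only, 26 FAIRE-seq only and 44 neither, and from 2000 bp outside to 500 bp inside, 92 had both, 2 DNase-seq only, 11 FAIRE-seq only and 2 neither. Each member's strongest FAIRE-seq peak outranked a median of 87.8% of the FAIRE-seq list, against 74.2% for all genes with a summit. The medians were 92.7% for the dehydration targets and 91.8% for the phosphatases. Nearer to all genes were hormone metabolism and transport (78.3%), transcription factors (77.8%), receptors (74.3%) and SnRK2 kinases (66.0%). Among the other lists, genes of touch, wounding and jasmonate had 89.8%, reference genes of expression studies 88.6% and photosynthesis genes 84.9%. PIP aquaporin genes had 82.8%, guard cell and stomatal genes 73.0%, seed storage and maturation genes 70.2% and root cell markers 56.8%. Shoot markers had 81.5%, from 1 gene. Over the 107 genes, the strongest DNase-seq peak outranked a median of 71.2% of its list, against 70.9%. In the control FAIRE-seq list the median of the 107 genes was already 91.7%, against 76.1% for all genes.

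**Figure D5:**
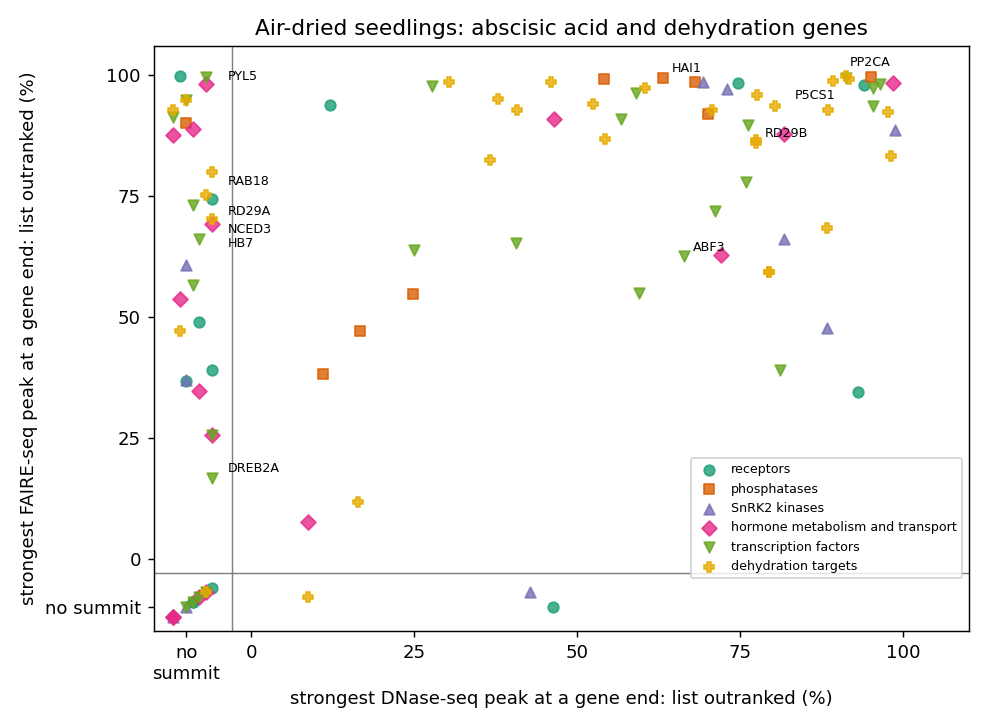
Each point is 1 of the 107 abscisic acid and dehydration genes, at the percent of the DNase-seq list (x axis) and of the FAIRE-seq list (y axis) that its strongest peak at a gene end outranked by −log10 p. Genes with no summit at an end in an assay lie in the margins, spread only to separate the points. The left margin holds the 29 genes with FAIRE-seq summits only, among them RD29A, RAB18 and NCED3, and the lower margin the 3 genes with DNase-seq summits only.

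Among the receptors, 4 of 14 had summits in both assays, 1 in DNase-seq only, 5 in FAIRE-seq only and 4 in neither. PYL13, PYL3, PYL7 and PYL8 had both. At PYL3 the DNase-seq peak at chromosome 1, 27462018 to 27462551, with a fold of 7.04, lay within the FAIRE-seq peak at 27461941 to 27462624, with a fold of 3.55. At PYL13 and PYL7 the strongest peaks of the 2 assays lay at different places, each a shared peak, and at PYL8 no peak at an end was shared. PYL1 had a DNase-seq summit only. PYL4, PYL5, PYL9, PYL10 and PYR1 had FAIRE-seq summits only. The peak 504 bp outside PYL5, at chromosome 5, 1608352 to 1608632, had a fold of 4.33 and outranked 99.7% of the FAIRE-seq list. It met a control peak in both assays, and the DNase-seq list of air-dried seedlings lacked it. Of these 5 genes, 4 had a control DNase-seq summit at an end. The count was 11 of the 29 genes with FAIRE-seq summits only on the 6 lists. Over all protein-coding genes it was 3516 of 7032. PYL2, PYL6, PYL11 and PYL12 had summits in neither assay.

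The PP2C phosphatases, which block signalling in the absence of the hormone, had summits in both assays in 8 of 9 genes. At PP2CA the peaks of the 2 assays nearly coincided, at chromosome 3, 3585792 to 3586166 in DNase-seq (fold 8.08) and 3585816 to 3586169 in FAIRE-seq (fold 4.20). They outranked 95.1% and 99.5% of their lists. At HAI2 the peaks at chromosome 1, 2282981 to 2283160 and 2282949 to 2283168, lay with their summits 250 and 242 bp outside the gene and had folds of 4.64 and 3.40. ABI2 had a shared pair with folds of 4.54 and 3.77, and at HAB2 the strongest peak of each assay was a shared one, at different ends. HAI1 had summits in both assays without a shared peak. The DNase-seq peak at chromosome 5, 23893531 to 23893661 (fold 3.97), lay 809 bp outside one end, within another protein-coding gene. The FAIRE-seq peak at 23896643 to 23896880 (fold 3.92) lay 134 bp inside the other end. ABI1, HAB1 and HAI3 had weaker shared pairs. AHG1 had FAIRE-seq summits only, the stronger with a fold of 3.12.

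Of the SnRK2 kinases, 5 of 10 had summits in both assays, 1 in DNase-seq only, 2 in FAIRE-seq only and 2 in neither. SNRK2.4 had the strongest pair, at chromosome 1, 3659170 to 3659458 (fold 13.1) and 3659200 to 3659397 (fold 2.82). The summits of this pair lay 699 and 689 bp outside SNRK2.4, within another protein-coding gene. SNRK2.5, SNRK2.7, SNRK2.9 and SNRK2.1 also had both, but the strongest FAIRE-seq peak at each of these 4 genes met no DNase-seq peak. The kinases that abscisic acid activates most are SNRK2.2, SNRK2.3 and OST1. SNRK2.3 had 1 FAIRE-seq peak with a fold of 2.15, which outranked 36.8% of the list, and SNRK2.2 and OST1 had no summit in either assay. In the control, SNRK2.2 had a DNase-seq summit and OST1 a FAIRE-seq summit. Over all protein-coding genes, 25.6% had FAIRE-seq summits only and 13.7% had neither.

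Genes of hormone metabolism and transport had FAIRE-seq summits only in 7 of 16 genes, summits in both assays in 5 and in neither in 4. Those with summits in both assays were the synthesis genes ABA1, ABA2 and ABA3, the breakdown enzyme CYP707A3 and the importer ABCG40. At ABA2 the peaks at chromosome 1, 19488984 to 19489488 and 19488949 to 19489490, had folds of 8.17 and 3.36 and outranked 98.4% and 98.3% of their lists. At ABA3 the folds were 8.05 and 2.76. At CYP707A3 the DNase-seq peak ended at 18370947 and the FAIRE-seq peak began at 18370969 on chromosome 5, so the 2 lay side by side without a shared base. NCED3, the dioxygenase that limits synthesis in drying leaves, had FAIRE-seq only, with a peak at chromosome 3, 4831355 to 4831506, a fold of 2.57 and no DNase-seq summit in the control either. NCED2, AAO3, CYP707A1, CYP707A2, CYP707A4 and the exporter ABCG25 also had FAIRE-seq summits only. Of these, the peak outside CYP707A2, at chromosome 2, 12494095 to 12494438, was the strongest, with a fold of 3.80. Of the 7 genes with FAIRE-seq only, 1 had a control DNase-seq summit, against 3516 of 7032 such genes over all protein-coding genes. BG1, NCED5, NCED6 and NCED9 had neither.

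Transcription factors of the drought response had summits in both assays in 15 of 27 genes, in FAIRE-seq only in 8 and in neither in 4, and all 15 had a shared peak. ABI5, a bZIP factor of seed and seedling responses, had the highest-ranked pair, at chromosome 2, 15207290 to 15207797 (fold 9.10) and 15207504 to 15207800 (fold 3.28). ATAF1, a NAC factor, had folds of 6.87 and 2.99, inside the gene. CBF4 had folds of 8.51 and 2.87, and CBF1 and ABF4 completed the 5 highest. ABF3, a main bZIP factor of abscisic acid responses in leaves, had a pair at chromosome 4, 16295107 to 16295350 and 16295098 to 16295365, with folds of 5.25 and 2.17. The DNase-seq peak of that pair met no control DNase-seq peak, and the FAIRE-seq peak met a control FAIRE-seq peak. ABF1, ABF2, CBF2, DREB2B, MYB2, MYB44, MYC2, NFYA5 and RD26 also had both.

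The 8 factors with FAIRE-seq summits only were AREB3, CBF3, DREB2A, DREB2C, HB12, HB7, NAC019 and NAC055. Their peaks ranged from near the bottom to near the top of the list. DREB2A, a factor of the dehydration and heat responses, had a peak at chromosome 5, 1604361 to 1604737, with a fold of 1.92 that outranked 16.7% of the list, and it met no control peak of either assay. The homeodomain gene HB7 had a 637 bp peak at chromosome 2, 19164571 to 19165207, with a fold of 2.52, which met control peaks of both assays. NAC019 had a peak at chromosome 1, 19699230 to 19699494, with a fold of 4.25 that outranked 99.5% of the list, and NAC055 one with a fold of 3.40. Of the 8 genes, 3 had a control DNase-seq summit, against 3516 of 7032 genes with FAIRE-seq summits only over all protein-coding genes. ABI3, ABI4, MYB60 and MYB96 had neither.

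The dehydration targets include dehydrins, LEA proteins and enzymes of osmolyte synthesis, beside other genes. Of the 31 genes, 23 had summits in both assays, 1 in DNase-seq only, 6 in FAIRE-seq only and 1 in neither. Their strongest FAIRE-seq peaks outranked a median of 92.7% of the list and their strongest DNase-seq peaks 77.4%. In the control the medians were 95.5% and 62.8%. GOLS1, which makes galactinol, had a DNase-seq peak at chromosome 2, 19369967 to 19370620, with a fold of 9.25. Its strongest FAIRE-seq peak, with a fold of 3.04, lay at another place, and each of these peaks met a peak of the other assay. P5CS1 catalyses a limiting step of proline synthesis. Its strongest DNase-seq peak lay 987 bp outside one end (fold 10.2), within another protein-coding gene. Its strongest FAIRE-seq peak lay 132 bp inside the other end (fold 3.87), and each of these peaks met a peak of the other assay. At ERD15 the peaks at chromosome 2, 17269052 to 17269269 and 17269029 to 17269284, straddled the gene end with folds of 10.1 and 4.50. At the chilling gene COR15B the folds were 7.53 and 3.56 at an overlapping pair. The dehydrin gene ERD14 had a DNase-seq fold of 9.35, with the summit 492 bp outside the gene, within another protein-coding gene. At another place, 736 bp outside ERD14, its strongest FAIRE-seq peak had a fold of 3.04 and met no DNase-seq peak.

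The tandem genes RD29B and RD29A differed. RD29B had a shared pair just outside the gene, at chromosome 5, 21236868 to 21237071 in DNase-seq (fold 6.49) and 21236827 to 21237053 in FAIRE-seq (fold 2.60). RD29A had a FAIRE-seq peak only, at 21240663 to 21240788, with a fold of 2.33 and its summit 13 bp inside the gene, and DNase-seq listed no summit at its ends in the control either. The dehydrin gene RAB18 had FAIRE-seq only, with a peak at chromosome 5, 26519460 to 26519737, a fold of 2.25 and control peaks of both assays at the same place. ADH1, KIN1, LTP3 and LTP4 also had FAIRE-seq summits only. The FAIRE-seq peak counted for KIN1 is also that of its neighbour KIN2, and the strongest peak of each assay is the same one for LTI30 and XERO1. RD21A had a weak DNase-seq peak only, with a fold of 2.68, and ERD1 had no summit in either assay, with 2 FAIRE-seq summits in the control.

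Other lists, chosen for the cell types and states a seedling holds, gave the following counts. Over all protein-coding genes, 57.2% had both, 3.44% DNase-seq only, 25.6% FAIRE-seq only and 13.7% neither. Of 16 reference genes of expression studies, 11 had both, among them ACT2, ACT7, ACT8 and EIF4A1. Of 18 photosynthesis genes, 8 had both and 8 FAIRE-seq only, among them CAB1, CAB2, CAB3 and LHCA1. Of 13 PIP aquaporin genes, 5 had both, 3 FAIRE-seq only and 5 neither. Of 16 guard cell and stomatal genes, 6 had both, 4 FAIRE-seq only, 4 neither and 2 DNase-seq only, namely ALMT12 and GORK, channels through which guard cells lose ions. The DNase-seq peak at GORK, 1186 bp wide, met a FAIRE-seq peak with its summit beyond the window, and so did the FAIRE-seq peak at LHCA1 a DNase-seq peak. Of 16 genes of touch, wounding and jasmonate, 10 had both and 4 FAIRE-seq only. Of 16 seed storage and maturation genes, 10 had both, among them CRA1, CRU2, CRU3 and EM1. Of 9 root cell markers, 4 had both and 4 FAIRE-seq only. Of 8 markers of the shoot meristem and leaf epidermis, 6 had neither, among them ATML1, CLV3, GL1 and PDF1. These are positions of peaks at genes and not levels of their RNA.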

How the data were processed

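Peaks of air-dried seedlings were compared between 2 deposited lists, 1 for DNase-seq and 1 for FAIRE-seq, each linked by the labels to 3 libraries. The sample titles mark the assays only as D and F, read here as DNase-seq and FAIRE-seq, the 2 methods that the series' design names. DNase I was applied to nuclei in the former, formaldehyde to whole seedlings in the latter, and reads were single-end, per the labels' protocols. FastQC, Bowtie2, TopHat2, SAMtools and MACS2 are listed beside the build TAIR10, per the submitters' processing notes, which give no versions or settings. How libraries were pooled, duplicates and reads with several matches treated, reads shifted or extended, and which background was used were not given in the sources used here. These steps can move summits and change list length.

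Each deposited list gives per peak a fold enrichment (a ratio) over the local background, written by the authors' peak caller. The −log10 p-value and −log10 q-value per peak are also as deposited by the authors. The deposited score is −log10 q times 10, cut to a whole number, for nearly all peaks, and no result uses it. Summits were placed by the deposited offset from the start of the peak. Strength was used only to rank and describe peaks within 1 list. Read totals are not in the lists, so depth is unknown.

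Chromosomes 1 to 5 were used, no list held identical coordinates on more than 1 line, and overlaps needed 1 shared base. Shares have 95% Wilson intervals (scipy 1.17.1, pandas 2.3.3, numpy 2.4.6). The overlap steps were tested on simulated data and against bedtools 2.31.1. With 1 list per group, no test was made. Genes were taken from RefSeq's table for TAIR10.1, which lacks strand, so both ends were pooled. It was used for names and for the place of peaks, and no genome sequence was used here, so no sequences are shown. All 219 entries of the gene lists matched the table. The 100 bp beside non-coding loci was set after the data were seen.

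The peak classes and gene lists were chosen with earlier results of these data known. Genes were named by rule: all members of the 6 abscisic acid and dehydration lists, with values for the 5 highest members per list among those seen by both assays, ordered by the worse of their 2 percentiles, 10 genes always given, the 8 genes at the strongest pairs, DNase-only and FAIRE-only peaks, and up to 4 members per status, in alphabetical order, on other lists. Beyond this rule, AHG1, SNRK2.3, CYP707A2, NAC019, NAC055 and RD21A are given with values, chosen after these were seen. Alternatives were a −log10 q of at least 5, FAIRE-seq cut to the length of the DNase-seq list, 50% of a peak covered, summits within 150 bp, every line counted, and a narrower (500 bp out, 100 bp in) and a wider (2000 bp out, 500 bp in) window at gene ends.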

Additional observations from a re-analysis of the deposited data

How the results depend on the processing

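Replicates could not be left out in turn, and no paired analysis was possible because each group's libraries are pooled in 1 list. A value with no replicates counted as moved where it left its counting interval, which is narrow for lists this long. Of 100 recomputed values, 69 moved and 31 did not, and the values that moved follow in the order DNase-seq before FAIRE-seq and shared before assay-only.

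With only peaks of a −log10 q of at least 5, the shared share was 84.2% of DNase-seq and 42.4% of FAIRE-seq peaks. Median widths were 243 and 170 bp in DNase-seq and 318 and 180 bp in FAIRE-seq, and median folds were 4.79, 3.56, 2.44 and 2.15. Summits within genes made up 77.3% of shared DNase-seq, 60.1% of DNase-only and 75.8% of shared FAIRE-seq peaks.

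With the FAIRE-seq list cut to the length of the DNase-seq list, the shared shares were 60.9% and 56.8%. Median widths were 257 and 181 bp and 375 and 220 bp, and median folds were 5.03, 3.69, 2.67 and 2.50. Within genes lay 78.7% and 66.5% of DNase-seq and 77.0% and 67.3% of FAIRE-seq summits. Assay-only peaks weaker by fold than the median shared peak made up 75.7% in DNase-seq and 68.9% in FAIRE-seq, against 77.5% and 75.5% of the full lists. Of the 107 genes, 10 then had DNase-seq summits only and 24 neither. Part of this follows from the cut itself, since fewer FAIRE-seq peaks are left to be met.

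With at least 50% of a peak covered, the shared shares were 80.5% and 32.4%. Median widths were 230 and 182 bp and 273 and 188 bp, and median folds of assay-only peaks were 3.62 and 2.12. Within genes lay 77.1% and 60.6% and 74.7% and 73.1%, and 70.5% and 71.7% of assay-only peaks were weaker than the median shared peak. With summits within 150 bp, the shared shares were 66.8% and 33.2%. Median widths were 226 and 206 bp and 279 and 185 bp, and median folds of assay-only peaks 4.00 and 2.12. Within genes lay 74.7% and 72.3% and 74.3% and 73.3%, and 61.8% and 71.8% of assay-only peaks were weaker than the median shared peak.

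Counted by −log10 p in place of fold, 78.5% of DNase-only and 80.2% of FAIRE-only peaks were weaker than the median shared peak. The narrower window at gene ends left 34 of the 107 genes with both and 44 with neither, and the wider window gave 92 with both, 11 with FAIRE-seq only and 2 with neither. Counting every line of the lists moved no share. Chosen after seeing the data, the share of weaker assay-only peaks was added, and the chromosome 2 block was left out. Without the block, the shared share was 86.8% in DNase-seq and the median DNase-only fold 3.52. Of FAIRE-only peaks, 76.4% were then weaker than the median shared peak. FAIRE-only peaks went only from 53311 to 53308, and the median shared FAIRE-seq fold from 2.3997 to 2.4. That share thus moved through peaks with folds at this median. In every setting run, shared peaks were wider and had a higher median fold than assay-only peaks of the same list. Depth is unknown, so a place without a peak is one where none was listed, and weak peaks near the authors' threshold are the least certain.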

Other observations

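A window of chromosome 5, from 11850001 to 11900000, held evenly spaced DNase-seq peaks. It was singled out after its values were seen, as a window of 50 kb in which most DNase-seq peaks were DNase-only, and the annotation used has 0 loci there. DNase-seq of air-dried seedlings listed 47 peaks in it, 36 of them DNase-only, and FAIRE-seq 44 peaks, 33 of them FAIRE-only. Neighbouring DNase-seq summits lay a median of 899 bp apart (quartiles 864 to 929), and 28 of the 46 distances were between 850 and 950 bp. FAIRE-seq summits were less evenly spaced, at a median of 910 bp (630 to 1426), with 11 of 43 distances between 850 and 950 bp. The nearest FAIRE-seq summit lay a median of 410 bp from a DNase-seq summit (335 to 461), from 300 to 600 bp away for 31 of 47 summits and within 150 bp for 11. The window was chosen for its DNase-only peaks, so that most summits of the 2 assays lie apart follows from the choice. The spacing did not enter the choice. The peaks were weak, with a median fold of 2.12 in DNase-seq and 1.51 in FAIRE-seq. The even spacing was seen less in the other DNase-seq lists, where 13 of 31 distances after salt, 6 of 21 in the control, 2 of 24 after cold and 1 of 14 after heat were between 850 and 950 bp. The FAIRE-seq lists held from 25 peaks in the control to 62 after salt. How reads with several matches were treated was not given in the sources used here, and its part in this pattern was not tested.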
